A study of Mus musculus with 18 samples.

Results

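The genes described here are 38 genes of glycolysis and of the transcriptional response to low oxygen, chosen by their known roles, among the 24335 genes used from the expression table of EA1 cells and the 24320 used from that of EA2 cells. All 38 were listed in both tables. EA1 (p53 wild type) and EA2 (p53 null) are mouse lung cancer cell lines that carry an Eml4-Alk fusion, each a single line derived from a tumor induced by a Cre-expressing adenovirus. RNA was sequenced from 18 libraries, of which 10 were of EA1 (5 from culture, called in vitro, and 5 from tumors, called in vivo) and 8 of EA2 (3 and 5). Cells in vitro were passaged in RPMI medium with serum and pelleted. For in vivo libraries, the left lung was injected with cells in male C57BL/6 mice aged 8 to 12 weeks that express GFP from the human ubiquitin C promoter, and after 4 weeks the GFP-negative cells were sorted from enzymatic digests, each pooling 3 to 5 mice. The comparison asks how these transcripts differ between the same cells in culture and in a lung tumor. Growth in the lung and the digestion and sorting that went with it cannot be told apart.

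Glycolysis turns glucose into pyruvate, and lactate dehydrogenase then reduces pyruvate to lactate, which leaves the cell through monocarboxylate transporters. When oxygen is low, prolyl hydroxylases stop marking HIF-1 alpha, the protein product of Hif1a, for breakdown, and the stabilised factor binds ACGTG or GCGTG motifs near glucose transporters, glycolytic enzymes, angiogenic factors and mitophagy receptors. Control of HIF-1 alpha is mainly at the protein, so the level of its transcript is a separate quantity. Txnip and Arrdc4 encode alpha-arrestins that restrain glucose uptake, and the glucose-sensing factor MondoA induces both when sugar phosphates accumulate.

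Values were the authors' FPKM per gene, which scale fragments to transcript length and to the number mapped in that library. Because FPKM carry no counts, the depth of each library is unknown. Changes were computed as the difference of mean log2(FPKM + 1), in vivo minus in vitro, within each line, and are given with their standard error (SE). They were tested with limma and adjusted by the Benjamini-Hochberg method over all genes tested in that line, 11212 in EA1 and 11074 in EA2, with a call at an adjusted p under 0.05. On this scale the change of a gene near 0 FPKM is understated. Replicates were separate samples of a group, in vivo each a pool of mice, and nothing states whether the in vitro samples were separate cultures, so p-values there measure a spread that may be technical.

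Some libraries stood apart from the others of their group. The FPKM of EA2 in vitro libraries 1 and 3 summed to 733184 and 717905, against 518260 in library 2 and 475434 to 484492 in the EA2 in vivo libraries, with 40.0% and 38.3% of that sum in the top 100 genes, against 28.4% in library 2. Results of EA2 are therefore also given against in vitro library 2 alone, where the single library is assumed to vary like the others. That fit has fewer samples and called fewer of all genes, so a call lost there need not mean a smaller change. The epithelial label was checked with Epcam, Cdh1, Krt8, Krt18, Krt19 and Alk, which summed to 3682 to 4102 FPKM in EA1 in vitro and 1563 to 3621 in vivo. Each of these markers was lowest in library 4 among the EA1 in vivo libraries. The EA2 sums were 662 to 1252 in vitro and 314 to 752 in vivo. The sums were carried by keratins, and single markers moved apart. In EA1 Epcam was at 1.52 to 2.27 FPKM in vitro and 35.5 to 150.4 in vivo and rose (5.01 ± 0.32, adjusted p = 2.08e-07), as did Alk, while Krt8 (-0.81 ± 0.18, adjusted p = 0.00214) and Krt18 (-0.99 ± 0.12, adjusted p = 2.98e-05) fell. Epcam was at most 2.04 FPKM in any EA2 library, where Cdh1 and Alk rose and Krt19 fell. Markers of several other cell types were also measured. The 8 fibroblast markers summed to 4.22 to 6.95 FPKM in EA1 in vitro and to 167 to 2882 in vivo, highest in library 4, and 7 of 7 tested rose. In EA2 they summed to 0.483 to 21.4 in vitro and 346 to 810 in vivo, also highest in library 4, and 4 of 5 tested rose. The EA2 in vivo sum was mostly Dcn (mean 506 FPKM), with Col1a1 at 25.8, Lum at 0.0435 and Postn at 0.126. Dcn also reached 19.1 in an EA2 in vitro library. In EA1 in vivo the sum was spread over more genes, with means of 394 for Col3a1, 234 for Col1a1 and 194 for Dcn. The 9 macrophage and monocyte markers went from 53.6 to 68.6 FPKM in EA1 in vitro to 134 to 306 in vivo, with 4 of 5 tested higher and Mrc1 lower. In EA2 their sums were 49.5 to 71.5 in vitro and 37.5 to 149 in vivo, with Lyz2 higher and Mrc1 lower of 4 tested. Ptprc, which encodes CD45 of all leukocytes, was at most 0.712 FPKM in EA1 in vivo and at most 0.406 in EA2 in vivo. The 4 club and alveolar type 2 cell markers were at most 1.13 FPKM in sum in vitro, and reached 274 to 1089 in EA1 in vivo and 11.4 to 172 in EA2 in vivo. The 6 endothelial markers were at most 0.457 FPKM in sum in vitro, and reached 17.4 to 49.1 in EA1 in vivo and 0.626 to 11.3 in EA2 in vivo. Neutrophil markers summed to at most 18.2 FPKM in any library, and erythroid and T and B cell markers to at most 2.38. In sorted bulk RNA, fewer cells of a type and less RNA per cell cannot be told apart. What part these other cells had in the changes below was not tested.

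In EA1, 36 of the 38 genes passed the filter of 1 FPKM in at least 5 libraries. Of these, 21 rose in vivo, 6 fell and 9 did not pass the test. Over all genes tested in EA1, 30.9% rose and 40.7% fell. The median change of the 36 was 0.48 on the log2 scale, beside a median of -0.09 over all genes. In 14 of the 36 all in vivo libraries lay above all in vitro libraries, and in 5 all lay below, beside 25.3% and 32.5% of all genes. Slc2a3 and Car9, among the 21 and the 14, were below 1 FPKM in all in vitro libraries, so the filter fixed their direction and separation. The rises were mostly among transporters, the regulators of phosphofructokinase, and hypoxia response genes. Of the 7 tested genes from glyceraldehyde phosphate to lactate, with the kinase Pdk1 counted in, 6 fell or did not pass. Their median change was -0.09, beside -0.09 over all genes. Median-of-ratios scaling moved the median over all genes from -0.09 to 0.05 and the share of calls that were rises from 43.1% to 54.5%, and it gave 25 genes higher and 5 lower.

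In EA2, 37 of the 38 passed the filter of 1 FPKM in at least 3 libraries, and 17 rose, 3 fell and 17 did not pass. Over all genes tested in EA2, 32.9% rose and 24.4% fell. The median change of the 37 was 0.79, beside 0.18 over all genes. All in vivo libraries lay above all in vitro libraries in 12 genes, beside 28.1% of all genes, and in no gene did all lie below, beside 22.8%. Against in vitro library 2 alone, 5 rose (Hk1, Pfkl, Egln1, Ankrd37 and Ndrg1), beside 14.5% of all genes. No gene fell there by limma's adjusted p, beside 15.1% of all genes, and none did at an unadjusted p under 0.05, where 9 rose. Median-of-ratios scaling moved the median over all genes in EA2 from 0.18 to 0.02 and gave 17 higher and 6 lower. In both lines 10 genes rose: Slc2a1, Slc2a3, Gpi1, Pfkfb3, Egln1, Egln3, P4ha1, P4ha2, Ndrg1 and Car9. The share of all genes that rose in both lines is not given here, so this count has no background beside it. The EA2 changes of these genes were 0.84 to 2.85 with all libraries and 0.34 to 2.45 against library 2 alone. Of them, Slc2a3 and Car9 entered the tests of both lines only through in vivo libraries.

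**Figure D1:**
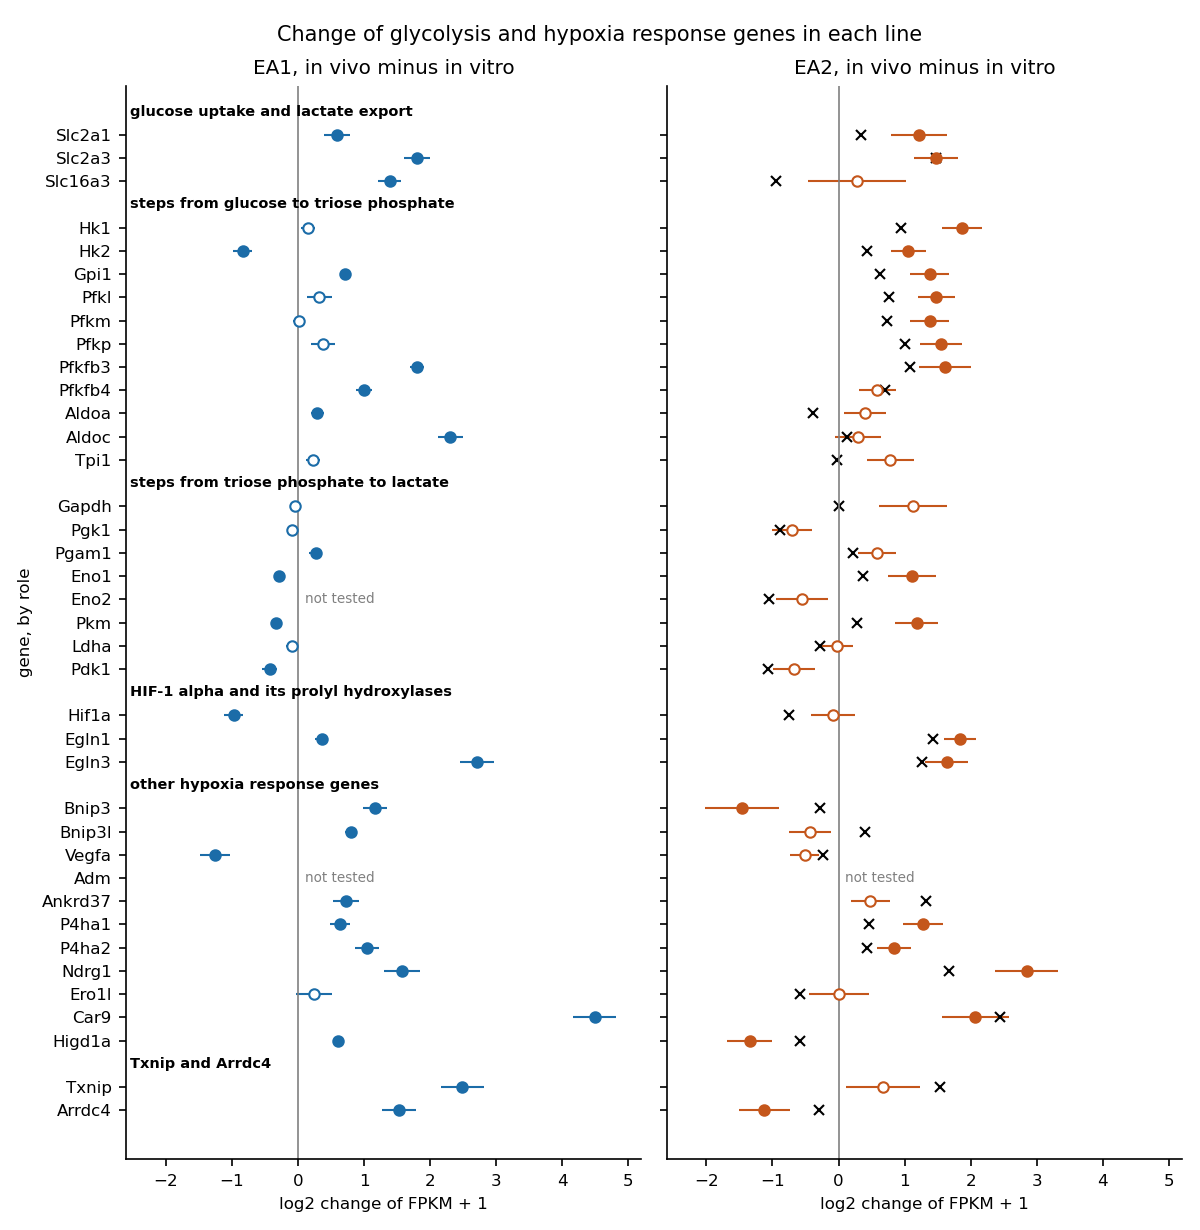
Change of each gene in EA1 (left) and EA2 (right), in vivo minus in vitro, on the log2(FPKM + 1) scale, with genes grouped by role. Points are the change and bars its SE, filled points passed the test at an adjusted p under 0.05, and crosses in the EA2 panel give the change against in vitro library 2 alone. Car9 has the highest change in EA1 at 4.49 and Ndrg1 in EA2 at 2.85, and most crosses in EA2 lie to the left of their points.

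The 3 transporters rose in EA1, and 2 of them in EA2, beside 30.9% of all genes in EA1 and 32.9% in EA2. Slc2a1 encodes GLUT1, the broadly expressed glucose transporter. Its FPKM in libraries 1 to 5 was 69.5, 89.9, 124, 94.5 and 106 in EA1 in vitro and 112, 161, 212, 108 and 145 in vivo. The groups overlapped, with in vivo libraries 1 and 4 inside the in vitro range, and the change was 0.58 ± 0.20, adjusted p = 0.02. EA2 cells gave 76.1, 129 and 34.1 in vitro and 172, 197, 268, 98.0 and 131 in vivo, a change of 1.22 ± 0.42, adjusted p = 0.0281. In vitro library 2 of EA2 was above in vivo library 4, and against it alone the change was 0.34, adjusted p = 0.616. The EA2 call was also lost without in vitro library 1 or 3 or in vivo library 1, 2 or 3, at adjusted p of 0.0513 to 0.144.

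Slc2a3 encodes GLUT3, a transporter with high affinity for glucose. It was at most 0.0292 FPKM in any EA1 in vitro library and reached 4.32, 1.38, 1.92, 3.66 and 2.33 in vivo, a change of 1.80 ± 0.20, adjusted p = 1.07e-05. Listed at 0 in EA2 in vitro libraries 1 and 2 and at 0.0112 in library 3, it reached 0.786, 1.77, 1.18, 1.83 and 4.60 in EA2 in vivo, with a change of 1.48 ± 0.33, adjusted p = 0.00342. The groups were separate in both lines, and against library 2 alone the EA2 change was 1.48. All in vitro values were below 1 FPKM, so Slc2a3 entered the tests only through in vivo libraries. In EA1 the separation thus followed from the filter. In vivo, Slc2a3 made up 2.06% ± 1.35 of the sum of Slc2a1 and Slc2a3 in EA1 and 1.40% ± 1.24 in EA2 (SD, n = 5 each). Slc16a3 encodes MCT4, which exports lactate. Its FPKM was 11.9, 13.1, 16.8, 14.4 and 16.9 in EA1 in vitro and 39.1, 36.8, 62.4, 30.1 and 35.9 in vivo, with no overlap and a change of 1.39 ± 0.17, adjusted p = 2.95e-05. In EA2 it was 69.8, 140.3 and 21.2 in vitro and 63.3, 169, 206, 34.4 and 25.8 in vivo. Those EA2 groups each spread over more than the difference of their means, and the change did not pass (change 0.28 ± 0.74, adjusted p = 0.761). Against library 2 alone its sign turned (-0.94, adjusted p = 0.537).

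From hexokinase to triose phosphate isomerase, 5 of 11 genes rose and 1 fell in EA1, with a median change of 0.33, and 7 of 11 rose in EA2, with a median of 1.38. Over all genes, 30.9% rose and 40.7% fell in EA1 (median -0.09), and 32.9% rose and 24.4% fell in EA2 (median 0.18). Against library 2 alone 2 of the 11 rose, with a median of 0.70, beside 14.5% of all genes. Hexokinases trap glucose in the cell by phosphorylation. Hk1, the form found in most tissues, was at 62.1, 64.0, 68.7, 66.3 and 73.5 FPKM in EA1 in vitro and 67.5, 86.5, 87.6, 58.0 and 76.6 in vivo, with overlap and a change of 0.15 ± 0.11, adjusted p = 0.228. EA2 cells had 12.4, 37.0 and 14.6 in vitro and 69.5, 71.1, 73.5, 78.0 and 69.0 in vivo. The 5 EA2 in vivo libraries lay close together and above all in vitro libraries, and the change of 1.88 ± 0.30, adjusted p = 0.000565 kept its call against library 2 alone (0.94, adjusted p = 0.0071). Hk2, the inducible form, moved in opposite directions. It was at 22.9, 33.4, 37.5, 34.3 and 34.3 in EA1 in vitro and 16.3, 18.3, 22.7, 13.9 and 17.4 in vivo, below without overlap, a change of -0.84 ± 0.15, adjusted p = 0.000353. In EA2 it was at 8.88, 18.6 and 9.53 in vitro and 23.9, 28.1, 32.7, 25.5 and 18.7 in vivo, above without overlap, a change of 1.06 ± 0.26, adjusted p = 0.00593. In vivo library 5 of EA2 (18.7) lay just above in vitro library 2 (18.6), and against library 2 alone the change was 0.43, adjusted p = 0.27. As a share of the 2 hexokinases, Hk1 was 67.5% ± 3.35 in EA1 cells in culture and 80.9% ± 1.16 in tumors (SD, n = 5 each) and 61.8% ± 4.31 (n = 3) and 73.9% ± 3.62 (n = 5) in EA2, without overlap in either line.

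Gpi1, the isomerase of the next step, rose in both lines. It was at 216, 199, 216, 222 and 228 FPKM in EA1 in vitro and 307, 376, 421, 326 and 362 in vivo, separate groups with a change of 0.72 ± 0.08, adjusted p = 1.47e-05. In EA2 it was at 57.5, 128 and 58.5 in vitro and 191, 203, 279, 166 and 172 in vivo, with a change of 1.38 ± 0.29, adjusted p = 0.00253, and against library 2 alone 0.63, adjusted p = 0.128. Phosphofructokinase commits sugar to glycolysis, and its liver (Pfkl), muscle (Pfkm) and platelet (Pfkp) forms all rose in EA2 and did not pass in EA1. Pfkl was at 25.9, 50.7 and 21.2 in EA2 in vitro and 84.5, 93.7, 110.1, 73.5 and 75.9 in vivo (change 1.48 ± 0.28, adjusted p = 0.00124), and its call held against library 2 alone (0.76, adjusted p = 0.0496). Pfkm was at 5.69, 14.9 and 9.04 in vitro and 33.8, 19.9, 20.2, 23.9 and 33.6 in vivo (change 1.38 ± 0.30, adjusted p = 0.00272, and 0.74, adjusted p = 0.131 against library 2 alone). Pfkp was at 2.40, 3.96 and 1.36 in vitro and 9.19, 15.5, 10.1, 5.92 and 6.83 in vivo (change 1.55 ± 0.31, adjusted p = 0.00195, and 1.01, adjusted p = 0.115 against library 2 alone). For all 3 forms the EA2 groups did not overlap, with in vitro library 2 the highest of its group.

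In EA1 the same 3 genes overlapped between groups. Pfkl was at 80.5, 82.5, 87.2, 89.9 and 86.7 in vitro and 97.0, 128, 147, 62.8 and 124 in vivo (change 0.33 ± 0.19, adjusted p = 0.143). Pfkm was at 18.8, 15.8, 13.8, 20.2 and 18.3 in vitro and 16.4, 17.5, 17.3, 17.4 and 18.5 in vivo (change 0.02 ± 0.09, adjusted p = 0.887). Pfkp was at 31.2, 41.9, 58.3, 56.7 and 52.8 in vitro and 54.1, 73.3, 66.0, 48.4 and 68.6 in vivo (change 0.38 ± 0.18, adjusted p = 0.0745). In vivo library 4 was the lowest in Pfkl and Pfkp, and without it both passed, as higher, at adjusted p of 0.000651 and 0.0291, as did Hk1 at 0.0202 and Tpi1 at 0.0113. In vivo library 4 was also the lowest of its group for every epithelial marker named above. Pfkp also passed without in vitro library 3 (0.0478) and Tpi1 without in vivo library 1 (0.0429). With median-of-ratios scaling Hk1, Pfkl, Pfkp and Tpi1 passed too, at 0.0112 to 0.0456. Pfkl made up 56.8% ± 3.33 of the 3 forms in EA1 in vitro and 57.5% ± 5.40 in vivo (SD, n = 5 each).

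The bifunctional enzymes Pfkfb3 and Pfkfb4 set the level of the main activator of phosphofructokinase. Pfkfb3 rose in both lines: it was at 1.89, 1.54, 1.92, 2.04 and 2.67 FPKM in EA1 in vitro and 10.4, 10.2, 9.60, 8.06 and 8.89 in vivo, with a change of 1.80 ± 0.10, adjusted p = 1.22e-07. In EA2 it was at 1.37, 3.49 and 1.81 in vitro and 9.69, 13.02, 12.8, 8.56 and 2.88 in vivo, with a change of 1.61 ± 0.40, adjusted p = 0.00586. In vivo library 5 of EA2 lay below in vitro library 2, and against that library the change was 1.08, adjusted p = 0.233. Pfkfb4 rose in EA1 from 3.23 ± 0.622 to 7.45 ± 1.19 FPKM (SD, n = 5 each) with a change of 1.00 ± 0.13, and did not pass in EA2 (0.59 ± 0.28, adjusted p = 0.0965). Aldolase splits the sugar bisphosphate. Aldoc, its brain-type form, was at 3.90, 2.91, 6.47, 6.79 and 5.87 in EA1 in vitro and 22.4, 32.0, 30.2, 30.3 and 29.1 in vivo, separate groups with a change of 2.31 ± 0.19, adjusted p = 1.21e-06. In EA2 it was at 5.07, 5.74 and 4.31 in vitro and 7.10, 11.1, 9.95, 3.38 and 3.67 in vivo, with the in vitro values inside the in vivo range and a change of 0.29 ± 0.34, adjusted p = 0.477. As a share, Aldoc was 2.51% ± 0.346 of the sum of Aldoa and Aldoc in EA1 in vivo, against 0.554% ± 0.148 in vitro (SD, n = 5 each). The abundant Aldoa went from 917 ± 67.5 to 1131 ± 173 FPKM in EA1 (0.29 ± 0.10, adjusted p = 0.0208), a call lost without in vitro library 2 (adjusted p = 0.0536), with quantile normalization (0.632) and with the length trend removed (0.94). In EA2 Aldoa did not pass (adjusted p = 0.3), except, as higher, without in vitro library 2 (0.0145), and against library 2 alone its sign turned (-0.39, adjusted p = 0.324). Triose phosphate isomerase, Tpi1, did not pass in either line with all libraries (adjusted p = 0.0868 in EA1 and 0.0795 in EA2). In EA2 it passed, as higher, without in vitro library 2 (0.00735) or in vivo library 4 (0.0487), with quantile normalization (0.0266) and with the length trend removed (0.034), and against library 2 alone its change was -0.03, adjusted p = 0.965.

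**Figure D2:**
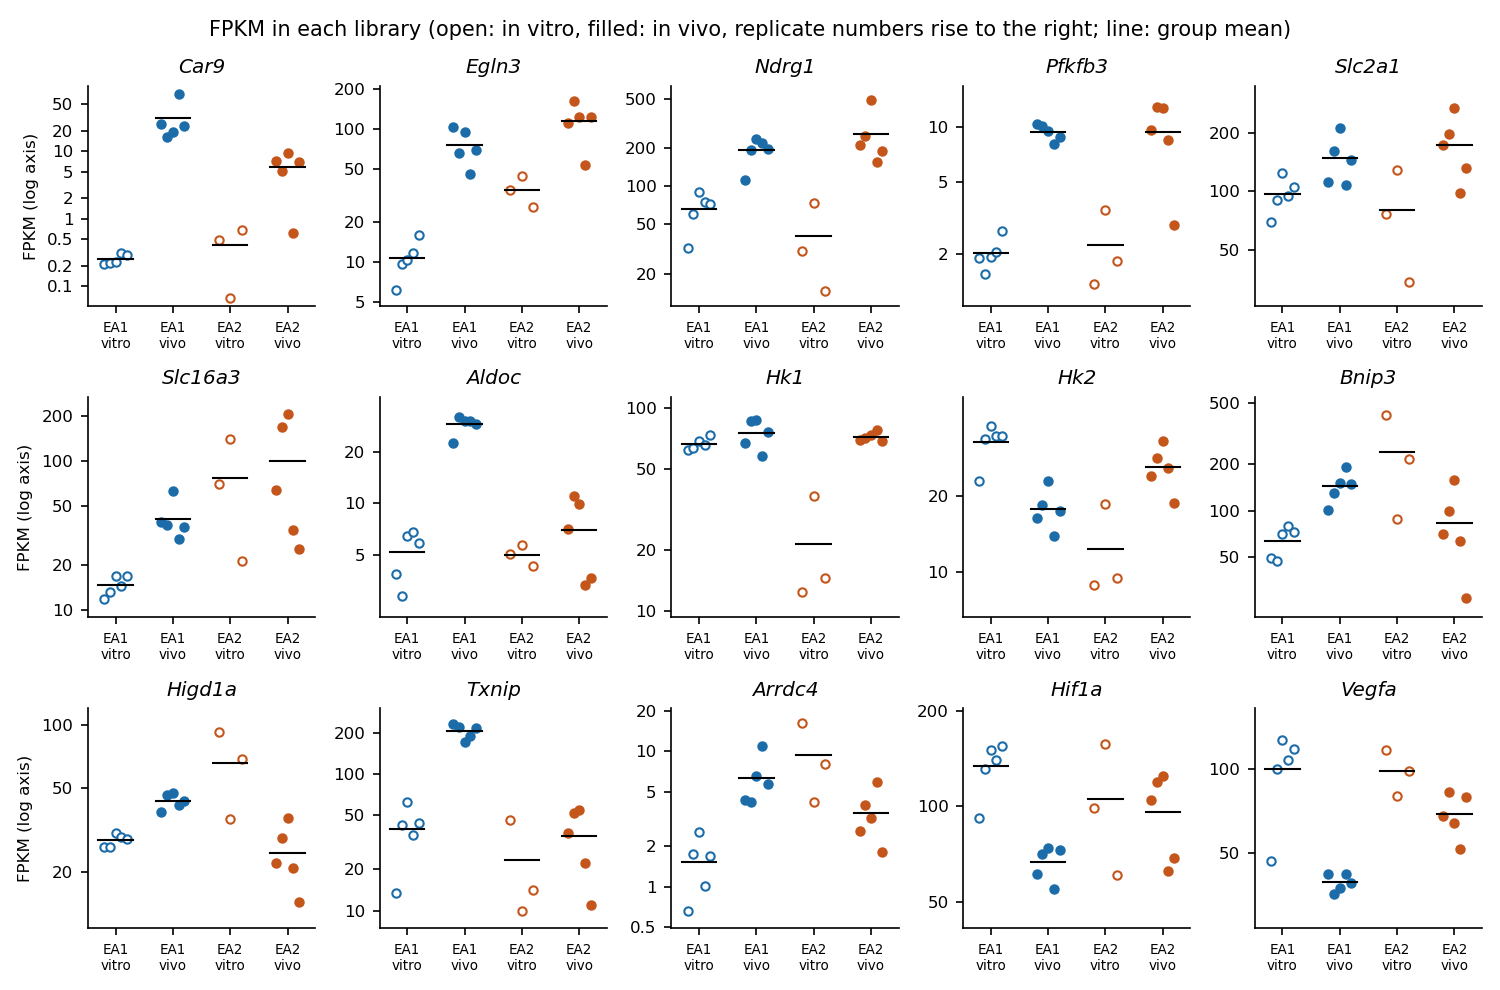
FPKM of 15 of the genes in every library, on a log axis of its own for each gene. Open points are in vitro libraries, filled points in vivo libraries, blue EA1 and orange EA2, and black lines are group means. EA1 groups are separate in Car9, Egln3 and Txnip, while among EA2 in vitro libraries number 2 lies apart from 1 and 3 in Hk1, Ndrg1, Bnip3 and Higd1a.

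From glyceraldehyde phosphate to lactate, 1 of 7 tested genes rose and 3 fell in EA1, with a median change of -0.09, beside -0.09 over all genes. The shares over all genes were 30.9% higher and 40.7% lower. Pdk1, which acts on pyruvate dehydrogenase and is not itself one of these steps, was counted with them. Eno1 encodes enolase. Its FPKM was 1546, 1279, 1266, 1512 and 1368 in EA1 in vitro and 1000, 1086, 1193, 1241 and 1169 in vivo, lower without overlap (change -0.29 ± 0.08, adjusted p = 0.00589), a call lost with median-of-ratios scaling (adjusted p = 0.144). Pkm encodes the pyruvate kinase of most tissues and tumors. It was at 1792, 1659, 1670, 1723 and 1767 in EA1 in vitro and 1222, 1374, 1566, 1270 and 1399 in vivo, again lower without overlap (change -0.34 ± 0.07, adjusted p = 0.000791). Pdk1, a kinase that shuts pyruvate dehydrogenase, fell from 34.6 ± 3.76 to 25.7 ± 4.46 FPKM (SD, n = 5 each), a change of -0.43 ± 0.12 (adjusted p = 0.00612). Pgam1, phosphoglycerate mutase, went the other way at 0.27 ± 0.10 (adjusted p = 0.0388), a call lost in 7 of 10 fits that left out a library, namely in vitro library 2, 3, 4 or 5 or in vivo library 2, 3 or 5 (adjusted p = 0.0532 to 0.0909). Gapdh, Pgk1 and Ldha, the dehydrogenase that makes lactate, did not pass in EA1. Ldha was at 1589 ± 48.2 FPKM in vitro and 1506 ± 213 in vivo (SD, n = 5 each).

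In EA2 Eno1 and Pkm were the 2 of these 8 genes that rose and 0 fell, beside 32.9% and 24.4% of all genes. Pkm was at 596, 1514 and 597 FPKM in vitro and 1686, 2005, 2211, 1414 and 2037 in vivo. In vitro library 2 lay above in vivo library 4, the change was 1.18 ± 0.32, adjusted p = 0.00976, and it was 0.29, adjusted p = 0.429 against library 2 alone and lost its call without in vitro library 1 (adjusted p = 0.054). Eno1 was at 43.8, 116 and 63.8 in vitro and 186, 188, 204, 81.7 and 132 in vivo, with a change of 1.12 ± 0.36, adjusted p = 0.0223, not passing without in vitro library 1 (0.123) or 3 (0.0682) or against library 2 alone (0.57). These Eno1 values are uncertain. Eno1b, a near-identical copy, was listed at 36.3 to 179 FPKM in EA2, and Eno1 was 0.881 to 1.43 times Eno1b there, while in EA1 it was 6.81 to 4190 times Eno1b. Gapdh has 70 genes in the annotation of at least 95% identity over at least 50% of its transcript, 66 of them pseudogenes. It was listed at 4.58 to 51.9 FPKM in EA2 and at 1816 to 2416 in EA1, in tables that were processed separately, and its EA2 values are given as listed only. Pgk1, Pgam1, Eno2, Ldha and Pdk1 did not pass in EA2 with all libraries. Pgk1 passed, as lower, without in vitro library 3 (0.0454) or in vivo library 3 (0.0209) and with median-of-ratios scaling (0.0405). Pdk1 passed, as lower, without in vivo library 3 (0.0438), with median-of-ratios scaling (0.0349) and with the length trend removed (0.00798). Pgam1 passed, as higher, without in vitro library 2 (0.0496) or in vivo library 5 (0.0481). It also passed with quantile normalization (0.019) and with the length trend removed (0.0375). Ldha was at 951 ± 208 FPKM in vitro (n = 3) and 933 ± 198 in vivo (SD, n = 5). Eno2, the neuronal enolase, failed the filter in EA1, at no more than 1.11 FPKM.

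Of Hif1a and its prolyl hydroxylases, the transcript of the factor and those of the enzymes moved apart in EA1. Hif1a was at 91.9, 131, 151, 139.9 and 155 FPKM in EA1 in vitro and 61.1, 71.0, 74.2, 55.2 and 72.9 in vivo. All in vivo libraries lay below, with a change of -0.97 ± 0.14, adjusted p = 8.86e-05. In EA2 it was at 98.9, 157 and 60.7 in vitro and 105, 119, 125, 62.8 and 68.7 in vivo, where the in vivo libraries lay within the in vitro range and the change was -0.09 ± 0.34, adjusted p = 0.844. Egln3 encodes PHD3, a hydroxylase that HIF itself induces. It was at 6.17, 9.63, 10.4, 11.8 and 15.8 in EA1 in vitro and 104, 65.9, 96.0, 45.8 and 69.7 in vivo, separate groups with a change of 2.71 ± 0.25, adjusted p = 3.16e-06. EA2 libraries gave 34.8, 44.3 and 25.9 in vitro and 112, 163, 123, 53.7 and 124 in vivo, also separate, with a change of 1.64 ± 0.33, adjusted p = 0.0019, and 1.27, adjusted p = 0.0955 against library 2 alone. In EA2 in vivo, library 4 was the lowest at 53.7, against 112 to 163 in the others. Egln1 encodes PHD2, the main hydroxylase acting on HIF-1 alpha in most cells. It was at 60.0, 54.1, 59.6, 64.3 and 63.5 in EA1 in vitro and 61.3, 75.9, 88.0, 86.5 and 79.0 in vivo, with in vivo library 1 inside the in vitro range and a change of 0.36 ± 0.10, adjusted p = 0.0055. EA2 values were 6.44, 12.7 and 9.96 in vitro and 34.5, 29.5, 44.4, 45.1 and 29.6 in vivo, separate groups with a change of 1.83 ± 0.24, adjusted p = 0.000221, and its call held against library 2 alone (1.44, adjusted p = 0.012).

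Of the other hypoxia response genes, 8 of 10 tested rose and 1 fell in EA1, with a median change of 0.76. Over all genes in EA1, 30.9% rose and 40.7% fell, with a median of -0.09. In EA2 4 of 10 rose and 2 fell, with a median of 0.24. These EA2 values were near those over all genes, of which 32.9% rose and 24.4% fell, with a median of 0.18. Against library 2 alone the median of the 10 was 0.41, beside -0.05 over all genes. Car9 encodes carbonic anhydrase IX, a membrane enzyme that acidifies the cell surroundings and is widely used as a hypoxia marker. It was at 0.210, 0.222, 0.225, 0.307 and 0.288 FPKM in EA1 in vitro and 25.9, 16.2, 19.6, 72.3 and 24.0 in vivo. The groups were far apart, with library 4 above the other in vivo libraries, and the change was 4.49 ± 0.32, adjusted p = 4.53e-07. Car9 was below 1 FPKM in every in vitro library of both lines, so it entered the tests only through in vivo libraries. In EA1 the filter alone thus required separate groups. The ratio of mean FPKM was 126, at in vitro levels below 1 FPKM whose counting error is unknown. In EA2 Car9 was at 0.481, 0.0662 and 0.677 in vitro and 7.09, 5.11, 9.31, 0.622 and 7.03 in vivo, with a change of 2.07 ± 0.51, adjusted p = 0.00573. In vivo library 4 (0.622) lay below in vitro library 3 (0.677), the other 4 in vivo libraries above all in vitro ones, and against library 2 alone the change was 2.45, adjusted p = 0.0761. Library 4 had the highest fibroblast marker sum in vivo in both lines, 2882 FPKM in EA1, where Car9 was highest, and 810 in EA2, where Car9 was lowest. The EA2 sum was mostly Dcn, so the sums of the lines are not alike. All epithelial markers named above were lowest in library 4 among EA1 in vivo libraries (sum 1563 FPKM). In EA2 library 4 had the highest in vivo sum of them (752). The part of fibroblasts or of the cancer cell share in the Car9 values was not tested.

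Ndrg1, a stress-induced gene that low oxygen raises strongly, was at 32.0, 59.6, 89.0, 74.2 and 72.3 FPKM in EA1 in vitro and 111, 195, 238, 219 and 199 in vivo, with a change of 1.57 ± 0.28, adjusted p = 0.000361. The EA2 libraries gave 30.2, 73.9 and 14.6 in vitro and 213, 251, 484, 156 and 191 in vivo. Groups were separate in both lines, and the EA2 change of 2.85 ± 0.48, adjusted p = 0.000691 kept its call against library 2 alone (1.68, adjusted p = 0.0495). P4ha1 and P4ha2 encode catalytic subunits of collagen prolyl hydroxylase. P4ha1 was at 22.5, 26.8, 30.9, 24.2 and 24.7 in EA1 in vitro and 29.4, 35.5, 39.2, 55.1 and 47.4 in vivo (change 0.63 ± 0.15, adjusted p = 0.00323), highest in library 4. For EA2 the values were 29.2, 61.4 and 22.6 in vitro and 86.5, 80.2, 110.5, 64.3 and 89.4 in vivo (change 1.28 ± 0.30, adjusted p = 0.00477, and 0.46, adjusted p = 0.223 against library 2 alone). P4ha2 was at 9.05, 10.8, 17.7, 12.2 and 11.3 in EA1 in vitro and 16.6, 27.3, 28.8, 28.8 and 29.5 in vivo (change 1.04 ± 0.19, adjusted p = 0.000441), with only in vivo library 1 inside the in vitro range. For EA2 its values were 24.6, 31.5 and 16.6 in vitro and 40.8, 41.3, 64.9, 38.3 and 33.9 in vivo (change 0.84 ± 0.26, adjusted p = 0.0181), a call lost without in vitro library 3 (adjusted p = 0.0929) and against library 2 alone (0.335).

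Bnip3 and Bnip3l encode receptors that direct mitochondria to autophagy, and Higd1a a protein of the inner mitochondrial membrane. Bnip3 was at 49.3, 47.2, 70.6, 79.4 and 72.4 FPKM in EA1 in vitro and 101, 129.5, 150.2, 192 and 148 in vivo, higher without overlap (change 1.17 ± 0.19, adjusted p = 0.000194). In EA2 cells it was at 418, 87.7 and 216 in vitro and 70.6, 99.9, 157, 63.8 and 27.1 in vivo. EA2 in vivo libraries 2 and 3 lay above in vitro library 2, and the change was -1.46 ± 0.56, adjusted p = 0.0449, a fall that was lost against library 2 alone (-0.28, adjusted p = 0.8) and without in vitro library 1 or 3 or in vivo library 1, 4 or 5 (adjusted p = 0.0719 to 0.232). Bnip3l was at 41.8, 36.2, 39.9, 48.0 and 45.4 in EA1 in vitro and 63.8, 70.3, 73.3, 87.0 and 78.9 in vivo, higher without overlap (change 0.81 ± 0.10, adjusted p = 1.96e-05). EA2 libraries had 161, 64.3 and 146 in vitro and 87.6, 118, 99.7, 62.9 and 67.9 in vivo, with a change of -0.43 ± 0.32, adjusted p = 0.272. It passed, as lower, without in vitro library 2 (-0.84, adjusted p = 0.0128), and its sign turned against library 2 alone (0.40, adjusted p = 0.4). Higd1a was at 26.3, 26.2, 30.6, 29.4 and 28.7 in EA1 in vitro and 38.3, 46.6, 47.6, 41.4 and 43.5 in vivo, higher without overlap (change 0.60 ± 0.07, adjusted p = 2.01e-05). Values in EA2 were 92.4, 35.6 and 68.6 in vitro and 22.2, 29.1, 35.9, 20.9 and 14.4 in vivo, with a change of -1.34 ± 0.34, adjusted p = 0.00665 and -0.58, adjusted p = 0.317 against library 2 alone. In all 3 genes EA2 in vitro libraries 1 and 3 were the highest of the line, and library 2 lay within the in vivo range.

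Vegfa, the main angiogenic factor, fell in EA1. It was at 46.9, 100.2, 127, 108 and 118 FPKM in EA1 in vitro and 41.9, 35.7, 37.3, 41.8 and 39.0 in vivo, lower without overlap (change -1.26 ± 0.23, adjusted p = 0.000473), with in vitro library 1 close to the in vivo values. It was in EA2 at 117, 80.0 and 98.6 in vitro and 67.9, 82.6, 63.8, 51.6 and 79.3 in vivo (change -0.51 ± 0.22, adjusted p = 0.0644), passing, as lower, without in vitro library 2 (adjusted p = 0.0155). It also passed there, as lower, with median-of-ratios scaling (0.0411) and with the length trend removed (0.0206). Ankrd37, an ankyrin repeat gene that HIF induces, rose in EA1 (0.72 ± 0.20, adjusted p = 0.00662), a call lost with the length trend removed (0.251). In EA2 Ankrd37 did not pass with all libraries (0.48 ± 0.29, adjusted p = 0.181), except, as higher, with the length trend removed (1.19, adjusted p = 0.0012). Against library 2 alone its change was 1.33. Ero1l, an oxidase of the endoplasmic reticulum, did not pass in either line (0.24 ± 0.27 in EA1 and 0.01 ± 0.45 in EA2). Adm, the precursor of the vasodilator adrenomedullin, failed the filter in both lines. It was listed at 0.0189 to 0.205 FPKM in EA1 in vitro and 0.925 to 3.75 in vivo, without overlap, and at 0.0173 to 0.123 and 0.0834 to 1.08 in EA2.

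Txnip and Arrdc4 rose together in EA1 and differed in EA2. Txnip was at 13.4, 42.4, 62.6, 35.9 and 43.7 FPKM in EA1 in vitro and 233, 219, 171, 189 and 217 in vivo, separate groups with a change of 2.49 ± 0.32, adjusted p = 3.8e-05. The values of EA2 were 45.9, 9.88 and 14.1 in vitro and 37.1, 51.9, 54.2, 22.2 and 10.9 in vivo, with wide overlap and a change of 0.67 ± 0.56, adjusted p = 0.323, and 1.53, adjusted p = 0.17 against library 2 alone. Arrdc4 was at 0.655, 1.73, 2.52, 1.01 and 1.68 in EA1 in vitro and 4.39, 4.19, 6.58, 10.9 and 5.78 in vivo, separate groups with a change of 1.53 ± 0.25, adjusted p = 0.000247. EA2 gave 16.1, 4.25 and 8.08 in vitro and 2.58, 4.00, 3.21, 5.96 and 1.79 in vivo, a change of -1.12 ± 0.38, adjusted p = 0.0267, a fall that was lost against library 2 alone (-0.29, adjusted p = 0.65) and without in vitro library 1 or 3 or in vivo library 1 or 5 (adjusted p = 0.0533 to 0.151). In vitro library 1 was the highest of the 3 EA2 in vitro libraries for both genes, and for Arrdc4 the highest of the line. Of the related list of MondoA and ChREBP factors and other alpha-arrestins, 2 of 6 tested rose and 2 fell in EA1, where Arrdc1 changed most (0.73 ± 0.12, adjusted p = 0.000244) and Mlx, the partner of MondoA, next (0.36 ± 0.11, adjusted p = 0.0146). In EA2 Mlx fell (-1.26 ± 0.22, adjusted p = 0.000818), as did thioredoxin, Txn1 (-1.04 ± 0.33, adjusted p = 0.0195), among 1 higher and 2 lower of 6. Against library 2 alone Mlx kept its call (-1.09, adjusted p = 0.0133) and Txn1 did not (-0.09, adjusted p = 0.752).

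Promoter windows are shown for 5 genes as examples: Car9 and Egln3, higher in both lines, Bnip3 and Arrdc4, higher in EA1 and lower in EA2 with all libraries but not against library 2 alone, and Ldha, a textbook HIF target that did not pass in either line. Each window runs from 250 bases before to 50 after the annotated start of transcription (RefSeq, GRCm38.p6), 5′ to 3′ on the strand of the gene. Capitals mark ACGTG or GCGTG, the cores of the hypoxia response element, on either strand (reverse complements CACGT and CACGC), and CACGTG, the palindrome read by MondoA and other E-box factors, which holds ACGTG on both strands.
Car9, chr4:43506776-43507075, plus strand: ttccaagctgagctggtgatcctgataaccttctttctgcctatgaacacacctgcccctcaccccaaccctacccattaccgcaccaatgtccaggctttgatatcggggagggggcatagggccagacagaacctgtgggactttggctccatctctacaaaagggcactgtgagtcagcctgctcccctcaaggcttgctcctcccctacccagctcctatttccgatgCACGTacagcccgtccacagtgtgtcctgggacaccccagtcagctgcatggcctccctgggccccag
Egln3, chr12:54203825-54204124, minus strand: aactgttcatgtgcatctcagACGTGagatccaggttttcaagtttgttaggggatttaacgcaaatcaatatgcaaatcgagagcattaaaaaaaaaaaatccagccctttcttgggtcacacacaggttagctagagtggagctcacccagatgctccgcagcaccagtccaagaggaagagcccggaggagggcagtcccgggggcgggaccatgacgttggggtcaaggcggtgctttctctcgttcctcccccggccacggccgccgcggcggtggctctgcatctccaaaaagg
Bnip3, chr7:138909457-138909756, minus strand: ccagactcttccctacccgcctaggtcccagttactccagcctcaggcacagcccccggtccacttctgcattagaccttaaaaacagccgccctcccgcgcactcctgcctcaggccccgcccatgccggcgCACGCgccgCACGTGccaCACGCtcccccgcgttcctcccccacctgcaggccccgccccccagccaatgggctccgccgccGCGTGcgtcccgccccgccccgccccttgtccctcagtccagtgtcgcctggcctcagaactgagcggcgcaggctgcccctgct
Arrdc4, chr7:68749189-68749488, minus strand: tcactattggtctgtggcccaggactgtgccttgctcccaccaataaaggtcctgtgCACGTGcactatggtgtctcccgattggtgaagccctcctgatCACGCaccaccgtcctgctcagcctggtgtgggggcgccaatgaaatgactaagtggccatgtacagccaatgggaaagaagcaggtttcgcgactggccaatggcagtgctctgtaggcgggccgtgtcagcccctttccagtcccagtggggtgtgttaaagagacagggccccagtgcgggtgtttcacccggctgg
Ldha, chr7:46845554-46845853, plus strand: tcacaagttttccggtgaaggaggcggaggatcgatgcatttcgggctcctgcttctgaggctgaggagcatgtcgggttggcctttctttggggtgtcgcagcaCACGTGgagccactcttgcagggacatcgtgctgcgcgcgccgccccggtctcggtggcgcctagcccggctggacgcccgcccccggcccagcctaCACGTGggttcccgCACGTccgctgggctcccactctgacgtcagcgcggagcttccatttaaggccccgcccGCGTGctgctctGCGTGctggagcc
The single motif of Car9 began 18 bases before the start and that of Egln3 began 229 bases before it. Ldha held the most, with 5 matches of ACGTG on the 2 strands and 2 of GCGTG. Bnip3 and Arrdc4 each held 1 CACGTG, which began 108 and 193 bases before the start, with 3 and 1 further matches of GCGTG.

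Windows were found for 35 of the 38 genes, with 49 windows, and those of Bnip3l, Slc2a3 and Ndrg1 were not analysed here. ACGTG stood in at least 1 window of 71.4% of the 35 genes, against 21.8% of 27025 genes of the table and 29.5% of 9048 genes tested in at least 1 of the lines. GCGTG stood in 68.6% of the 35, against 35.2% and 57.1%, and CACGTG in 17.1%, against 8.09% and 11.9%. Ldha, with 7 matches, did not pass in either line, and Egln3, with 1 match, rose in both. A match of letters is not a binding site, and these shares are descriptions without a test.

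The difference between the lines was tested by limma on the 18 libraries together, as the change in EA1 minus the change in EA2, over 11930 genes. Levels were compared only within each table. Of the 37 genes tested, 8 had a higher change in EA1 and 9 a higher change in EA2, beside 27.1% and 36.3% of all genes. Higher in EA1 were Bnip3 (2.62 ± 0.60, adjusted p = 0.00114), Arrdc4 (2.65 ± 0.47, adjusted p = 0.000138), Car9 (2.42 ± 0.63, adjusted p = 0.0029), Aldoc (2.01 ± 0.40, adjusted p = 0.000322), Higd1a (1.95 ± 0.34, adjusted p = 0.000101), Txnip (1.82 ± 0.68, adjusted p = 0.0256), Bnip3l (1.24 ± 0.32, adjusted p = 0.00301) and Egln3 (1.08 ± 0.43, adjusted p = 0.0361). Higher in EA2 were both hexokinases and the 3 phosphofructokinases, with Hk2 (-1.89 ± 0.29, adjusted p = 3.86e-05), Hk1 (-1.72 ± 0.31, adjusted p = 0.000139), Pfkm (-1.36 ± 0.30, adjusted p = 0.000751), Pfkp (-1.18 ± 0.36, adjusted p = 0.0089) and Pfkl (-1.15 ± 0.34, adjusted p = 0.00617). Further along, Pkm (-1.52 ± 0.31, adjusted p = 0.000428), Egln1 (-1.48 ± 0.24, adjusted p = 7.01e-05), Eno1 (-1.41 ± 0.36, adjusted p = 0.00265) and Hif1a (-0.89 ± 0.36, adjusted p = 0.0374) also had a higher change in EA2.

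With library 2 as the lone in vitro sample of EA2, 8 genes differed between the lines, 7 of them among the 17: Hk1, Hk2, Pkm and Egln1, with a higher change in EA2, and Aldoc, Higd1a and Arrdc4, with a higher change in EA1. All 17 kept their sign there. The share of all genes that differed in that fit is not given here, so these counts have no background beside them. The Car9 difference was 2.04 ± 0.88 with an adjusted p of 0.0768, and that of Bnip3 1.45 ± 0.68 with 0.102. Left-out libraries ended 3 of the 17 calls. Hif1a lost its call in 11 of 18 such fits, with the smallest difference of -0.55 (adjusted p = 0.171) without EA2 in vitro library 3, and Egln3 in 7 of 18 (adjusted p = 0.0535 to 0.0971). Txnip lost it without EA2 in vitro library 1 (1.20, adjusted p = 0.13). The difference did not pass for Slc2a3, Pfkfb3, P4ha2 and Ldha, at 0.32 ± 0.38, 0.19 ± 0.41, 0.20 ± 0.32 and -0.06 ± 0.24.

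**Figure D3:**
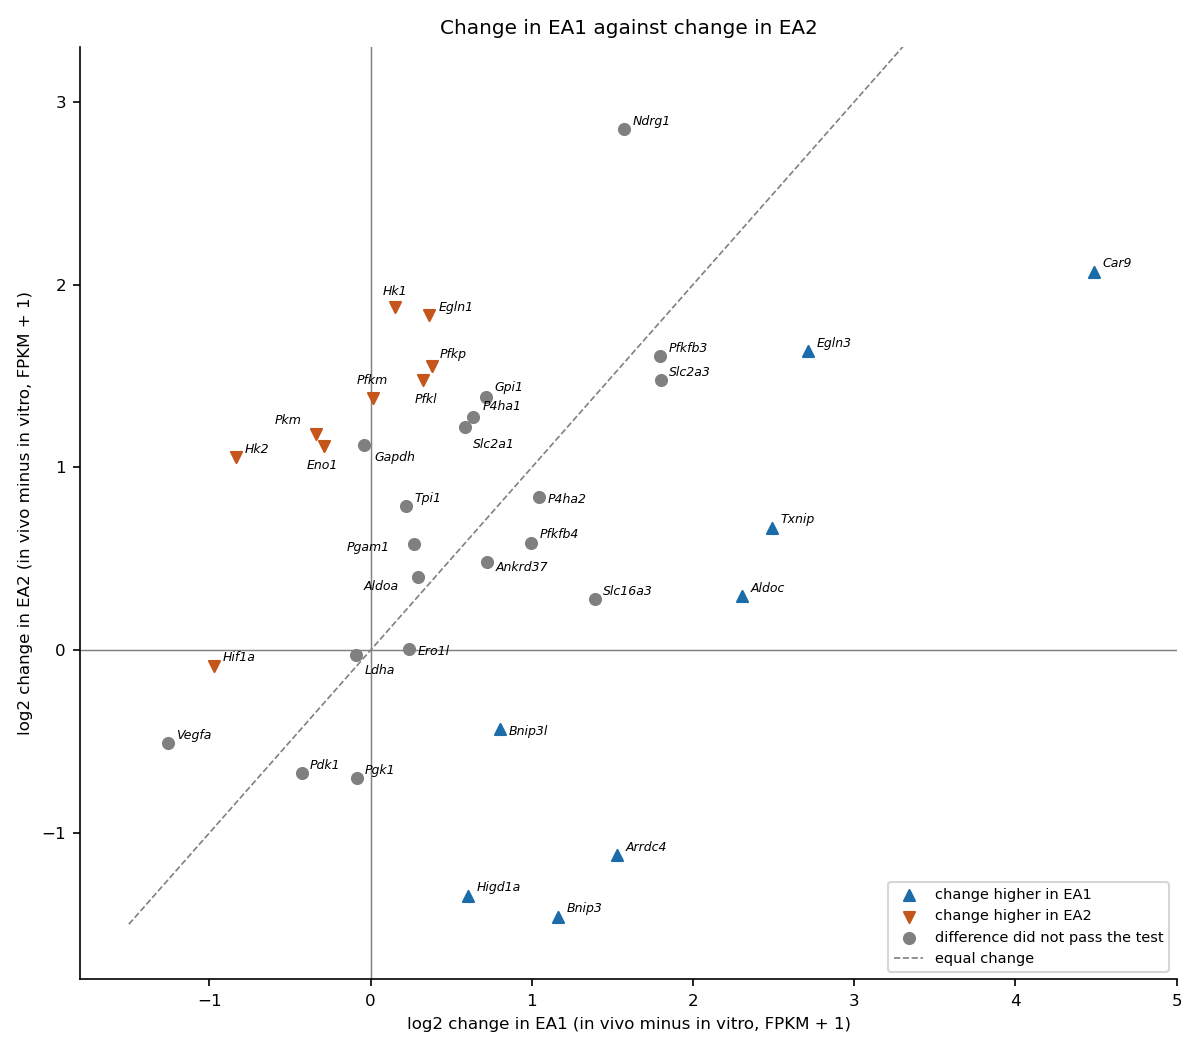
Change of each gene tested in both lines, EA1 on the horizontal and EA2 on the vertical axis, both as in vivo minus in vitro of log2(FPKM + 1). Upward triangles have a higher change in EA1 and downward triangles a higher change in EA2 by the test of the difference, circles did not pass it, and the dashed line marks equal change. Bnip3, Higd1a and Arrdc4 lie to the right and below 0, and Hk2, Eno1 and Pkm to the left and above 0.

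Among EA2 in vivo libraries, number 3 was the highest for 23 of the 38 genes, with Slc2a1 at 268, Slc16a3 at 206 and Ndrg1 at 484 FPKM, and libraries 4 and 5 were low for several, with Slc16a3 at 34.4 and 25.8. The sum over the 38 genes was 9863 FPKM in library 3, against 5355 to 8013 in the other 4. In EA2 in vitro it was 5728, 7520 and 4049 in libraries 1, 2 and 3. Relative to the EA2 in vivo mean, the median over the 37 tested genes was -0.77, -0.37 and -1.23 in in vitro libraries 1, 2 and 3 on the log2 scale, beside -0.38, 0.05 and -0.24 over all genes. The sums of EA1 overlapped, at 9667 to 10643 FPKM in vitro and 9144 to 12045 in vivo.

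**Figure D4:**
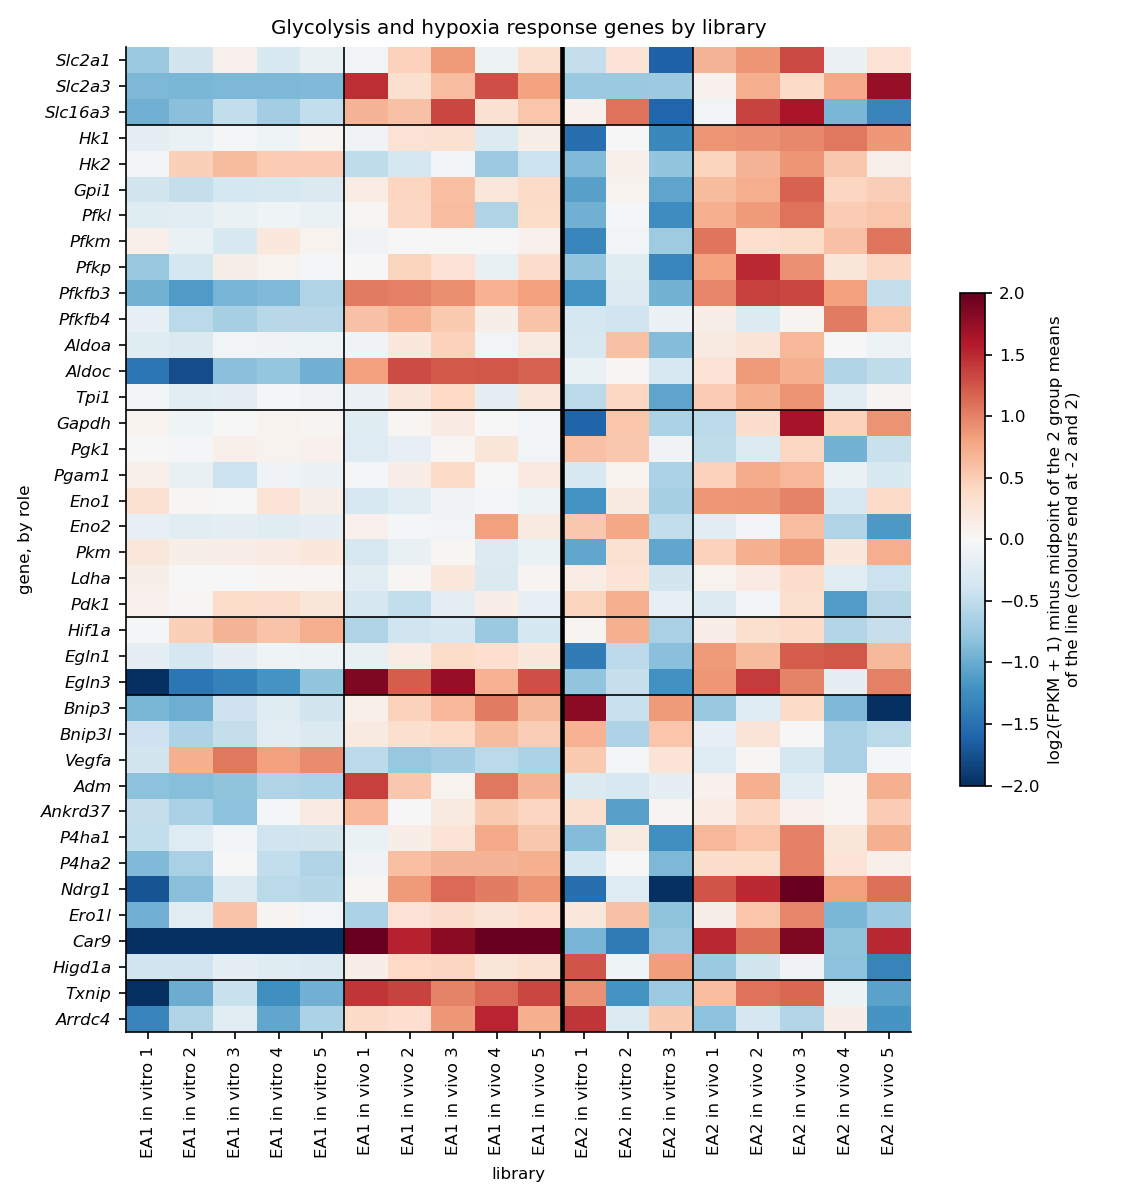
Heat map of the 38 genes (rows, by role) in the 18 libraries (columns). Colours give log2(FPKM + 1) minus the midpoint of the 2 group means of the line, red higher and blue lower, ending at -2 and 2. Car9, Egln3, Aldoc and Txnip separate EA1 in vitro from EA1 in vivo, while EA2 in vitro library 2 is paler than libraries 1 and 3 in Hk1, Hk2, Gpi1 and the phosphofructokinases.

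Related genes outside the 38 were counted by list, to be read beside the shares over all genes, 30.9% higher and 40.7% lower in EA1, 32.9% and 24.4% in EA2, and 14.5% and 15.1% in EA2 against library 2 alone. Of other genes of glucose transport and glycolysis, 9 of 17 tested rose and 5 fell in EA1, among them Pklr, the pyruvate kinase of liver and red cells, which rose (2.31 ± 0.34, adjusted p = 0.000113). Pklr was lowest in in vivo library 4, where fibroblast markers summed highest and every epithelial marker was lowest of the EA1 in vivo libraries. In EA2 4 of 13 rose and 4 fell, led by Slc16a1, which encodes the lactate transporter MCT1 (1.94 ± 0.28, adjusted p = 0.000329), and Pgm2 (1.83 ± 0.35, adjusted p = 0.00142). Against library 2 alone 3 rose and 4 fell, and Slc16a1 kept its call (adjusted p = 0.0207) while Pgm2 did not (1.03, adjusted p = 0.0972).

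Of genes that bring pyruvate into mitochondrial oxidation, 3 of 11 rose and 6 fell in EA1, and 2 of 12 rose and 5 fell in EA2 (1 and 4 against library 2 alone). Pdk2, another kinase that shuts pyruvate dehydrogenase, rose in both lines, from 1.51 ± 0.205 FPKM in EA1 in vitro by 2.32 ± 0.08 (adjusted p = 6.92e-09) and in EA2 by 2.15 ± 0.20 (adjusted p = 3.15e-05), the latter also against library 2 alone (1.92, adjusted p = 0.00413). Pdp1, a phosphatase that reactivates the complex, fell in EA1 (-0.70 ± 0.24, adjusted p = 0.0213), and Pdk4, at most 0.034 FPKM in EA2 in vitro, rose in EA2 (2.89 ± 0.62, adjusted p = 0.00257, and 0.0849 against library 2 alone). Pdk1 had fallen in EA1, so the kinases of the complex did not move together. In the pentose phosphate pathway, 1 of 7 rose and 4 fell in EA1, with Rpia at -0.57 ± 0.09 (adjusted p = 0.00012) and G6pdx, its entry enzyme, at -0.45 ± 0.08 (adjusted p = 0.000435). In EA2 3 of 7 rose and 1 fell (1 and 1 against library 2 alone, where Pgd kept its call and G6pdx did not), with Pgd at 1.76 ± 0.28 (adjusted p = 0.000535) and G6pdx at 1.31 ± 0.26 (adjusted p = 0.00181).

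Of HIF factors and regulators, 3 of 8 rose and 3 fell in EA1, and 6 of 8 rose in EA2 (4 against library 2 alone). Epas1, which encodes HIF-2 alpha, was at 0.351 to 0.615 FPKM in EA1 in vitro and 9.46 to 21.7 in vivo (3.41 ± 0.18, adjusted p = 6.65e-08), lowest in library 4. In the EA2 line it was at 0.101 to 0.244 in vitro and 3.08 to 6.88 in vivo (2.26 ± 0.24, adjusted p = 6.67e-05), also against library 2 alone (2.18, adjusted p = 0.00727). Epas1 is known to be high in endothelial cells. In each line their 6 markers summed highest in the same in vivo library as Epas1. This was library 3 in EA1 (49.1 FPKM) and library 4 in EA2 (11.3). The same libraries also held the highest in vivo sums of club and alveolar type 2 markers (1089 and 172) and of epithelial markers (3621 and 752). T and B cell markers did too, at 1.35 and 0.869. Macrophage and neutrophil sums were highest in other libraries in both lines, and fibroblast and erythroid sums in EA1. The part of any of these cells in this result was not tested. Cited2, which competes with HIF for its coactivators, fell in EA1 (-0.58 ± 0.12, adjusted p = 0.000892), and the coactivator Ep300 rose in EA2 (1.49 ± 0.23, adjusted p = 0.000425). Of other hypoxia-induced genes, 15 of 32 rose and 6 fell in EA1, and 11 of 28 rose and 3 fell in EA2 (6 and 4 against library 2 alone). Stc1, a secreted glycoprotein, changed most in EA1 (4.29 ± 0.30, adjusted p = 4.04e-07). Lox, the collagen crosslinking oxidase, rose in EA1 (3.42 ± 0.55, adjusted p = 0.00019), with 2.18 to 46.2 FPKM in vivo and the highest value in library 4, and in EA2 (3.94 ± 0.33, adjusted p = 1.87e-05), with 11.2 to 39.3 and the lowest in library 4. Hilpda, which guards lipid droplets from breakdown, fell in EA2 (-2.53 ± 0.31, adjusted p = 0.000156), also against library 2 alone (-1.90, adjusted p = 0.00972).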

How the data were processed

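RNA of cells in vitro and of sorted GFP-negative tumor cells was sequenced as stranded poly(A) libraries. The authors trimmed reads, aligned them to mm10 with STAR and deposited FPKM per gene from Cufflinks (release 2.0.2 in the submitters' processing notes, another release in the study's methods), in 1 table for each line. Whether both tables came from the same release and treatment of shared reads is not stated, which limits Gapdh, Eno1, Pkm, Pgk1 and Bnip3. The deposited FPKM carry no counts, so depth is unknown and no counting interval is given. All value columns matched a sample.

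Values were taken to log2(FPKM + 1). A gene entered the test of EA1 when 5 or more libraries reached 1 FPKM, and that of EA2 when 3 or more did. A gene below 1 FPKM in all in vitro libraries thus entered only through in vivo libraries, which favored a rise. Such genes included Slc2a3, Car9, Epas1 and Lox in both lines, and Pdk4 in EA2. Tests used limma 3.58.1 (R 4.3.3, trended empirical Bayes) without a replicate block, and p-values were adjusted by the Benjamini-Hochberg method over all genes. The 2 tables were normalized separately, so only changes were compared between lines, in a single fit with an interaction term. The procedure was tested on simulated data. Alternatives were another pseudocount, 2 other filters, median-of-ratios scaling, quantile normalization, robust empirical Bayes, a replicate block, removal of the length trend (loess span 0.3), leaving out each library, EA2 in vitro library 2 alone and, chosen after seeing the data, leaving out genes with near-identical copies. Copies were sought with minimap2 2.31-r1302. Tables and plots used Python 3.11.15.

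Values in every library are given for members that passed the test with an absolute log2 change of 1 or more in at least 1 line, for members whose change differed between the lines by 1 or more, and for Hif1a. Of the other lists, the 2 called genes with the largest absolute log2 change in each line are named, except for 1 result that is not reported here. The 38 genes were chosen by their known roles and not from their values, though earlier results of these data were known. The other lists were also written with earlier results of these data known.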

Additional observations from a re-analysis of the deposited data

Results flagged for a closer look

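Of 114 groups of 5 libraries, 11 held a library far from the other 4, where chance flags about 1 in 20 of independent groups. These groups are genes measured in the same libraries, so the count cannot be set against that rate. In EA1 in vitro these were library 1 for Hk2 (22.9 FPKM, others 33.4 to 37.5), Pfkfb4 (4.318, others 2.73 to 3.07) and Ldha (1671, others 1553 to 1585). In EA1 in vivo they were library 1 for P4ha2 (16.6, others 27.3 to 29.5) and Ero1l (28.36, others 53.2 to 56.9), library 3 for Slc16a3 (62.41, others 30.1 to 39.1), and library 4 for Eno2 (1.11, others 0.156 to 0.366) and Car9 (72.27, others 16.3 to 25.9). In EA2 in vivo they were library 3 for P4ha2 (64.88, others 33.9 to 41.3) and Ndrg1 (484.0, others 157 to 251), and library 5 for Slc2a3 (4.596, others 0.786 to 1.83).

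The change between in vitro and in vivo differed between the lines in 17 of 37 genes by the interaction test in limma. Over all genes in that test, 27.1% had a higher change in EA1 and 36.3% a higher change in EA2. The 17 of 37 were thus not above the share of all genes. The difference, EA1 minus EA2 on the log2 scale, was 2.65 for Arrdc4, 2.62 for Bnip3, 2.42 for Car9, 2.01 for Aldoc, 1.95 for Higd1a, 1.82 for Txnip, 1.24 for Bnip3l and 1.08 for Egln3. It was -1.89 for Hk2, -1.72 for Hk1, -1.52 for Pkm, -1.48 for Egln1, -1.41 for Eno1, -1.36 for Pfkm, -1.18 for Pfkp, -1.15 for Pfkl and -0.89 for Hif1a. Near-identical copies make the values of Eno1, Pkm and Bnip3 less certain.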

How the results depend on the processing

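No change of direction was found among called results under the alternatives run. In EA2 the 17 genes higher became 5 and the 3 lower became 0 against in vitro library 2 alone. The 3 lower became 1 with no filter and 6 with median-of-ratios scaling. Of the differences between lines, the 9 with a higher change in EA2 became 14 with quantile normalization, and against library 2 alone the 9 became 4 and the 8 with a higher change in EA1 became 4. Leaving out each library gave 19 to 25 genes higher and 6 to 7 lower in EA1, 14 to 21 higher and 1 to 5 lower in EA2, and differences of 6 to 11 genes higher in EA1 and 8 to 15 higher in EA2. The count of 1 lower in EA2 came without in vitro library 1 or in vivo library 1 or 5, the 5 without in vitro library 2 or in vivo library 3, and the 15 without EA2 in vitro library 2. Without the genes that have near-identical copies, EA1 had 20 higher and 4 lower and EA2 15 higher and 2 lower. Other calls lost in EA2 were those of Slc2a1, Eno1, Pkm, Bnip3 and Arrdc4 with no filter (adjusted p = 0.0546 to 0.121), Slc2a1 (0.0594) and Hk2 (0.0573) with the length trend removed, and Bnip3 with quantile normalization (0.164), robust empirical Bayes (0.0591) and the length trend removed (0.0776). In EA1, Gapdh, Pgk1 and Ldha passed, as lower, with quantile normalization (0.00145 to 0.0193) and the length trend removed (0.00107 to 0.014), and Pgam1 was lost with no filter (0.0547) and the length trend removed (0.735). The cause was not tested.

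The fit with the replicate block gave 20 higher and 6 lower in EA1, 22 higher and 2 lower in EA2, and differences of 7 and 12. Libraries that shared a number did not deviate together (correlations of -0.0606 to 0.0767 in EA1 and -0.131 to 0.00662 in EA2). This cannot show whether they were paired by design, which is not described. Under the block Pgam1 in EA1 (0.107) and Bnip3 in EA2 (0.0726) did not pass, and Aldoc, Tpi1, Gapdh, Pgam1 and Txnip passed, as higher, in EA2 (0.0141 to 0.0449). The depth of each library is unknown, so the precision of values below 1 FPKM, such as Car9 and Slc2a3 in vitro, cannot be given.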
